A study of Cavia porcellus with 34 samples.

Results

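The LGI proteins and the ADAM proteins that receive them form a small secreted ligand and receptor system of the nervous system, and its 7 genes (LGI1, LGI2, LGI3, LGI4, ADAM11, ADAM22 and ADAM23) were followed in the paraventricular nucleus (PVN) of guinea pigs. The members were picked by gene symbol, and all 7 were found among the 12114 genes listed in F1, the 12207 listed in F2 and the 12068 listed in F3. The choice was made with results of the sGC against Veh comparison in view, so the differences of the members between these groups are given as a description and carry no p-value. All 7 symbols were matched to protein-coding guinea pig genes of RefSeq.

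LGI proteins are secreted and carry leucine-rich repeats followed by EPTP repeats. ADAM11, ADAM22 and ADAM23 belong to the family of membrane metalloproteases but lack a working catalytic site, and they serve as adhesion receptors for the LGI proteins. LGI1, the best known ligand, links presynaptic ADAM23 to postsynaptic ADAM22 across the synapse, where ADAM22 is anchored to PSD-95 beside AMPA receptors. Loss of LGI1 causes an inherited temporal lobe epilepsy, and autoantibodies against it cause limbic encephalitis. On axons, LGI and ADAM proteins are found with voltage-gated potassium channels of the Kv1 type, and in peripheral nerve LGI4 and ADAM22 act together in the ensheathment of axons by Schwann cells.

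The PVN drives the hypothalamic-pituitary-adrenal stress axis. Pregnant Dunkin-Hartley guinea pigs (F0) received repeated courses of the synthetic glucocorticoid betamethasone (sGC) or of saline (Veh), and RNA was sequenced from PVN punches of juvenile female descendants at postnatal day 40. F1 animals were exposed in utero, and F2 and F3 animals descended from them through males mated with untreated females, so that no F2 or F3 pregnancy was itself treated. F1 and F2 each had 5 Veh and 5 sGC animals and F3 had 6 of each, and 2 of the F3 sGC animals came from a second sequencing batch. That batch also held 2 Veh animals (SGM5 and SGM9) sequenced for a second time, and the values used for them carry the labels of their first-batch samples. The punch covered the anteromedial hypothalamus and could hold tissue beside the PVN.

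What was deposited are counts per gene after normalization, given as whole numbers in 1 table for each generation. Their sum per animal, in M (mega), lay between 15.6 and 21.9 M in F1, between 15.6 and 19.4 M in F2 and between 18.7 and 19.0 M in F3. The 3 tables were normalized apart, so levels are compared only between animals of the same generation. No transcript lengths were used, so the levels of the members are not ranked against each other. The 8 markers of PVN neurons were all listed in every generation. Their summed value was lower in 3 F1 sGC animals (24010 in SGM4, 34487 in SGM8 and 48742 in SGM20) than in any F1 Veh animal, where it was at least 95979. In bulk tissue, fewer cells of a type and less RNA per cell cannot be told apart.

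Across the generations, the member that stood out differed. In F1 no member separated the groups, but LGI2 spread widely among sGC animals. In F2 the deposited means of all 7 members were lower in sGC (6 of 7 after median-of-ratios scaling), with the largest difference in LGI3. In F3 the largest difference was in LGI2, whereas LGI3, LGI4 and ADAM22 had nearly the same mean in both groups. LGI1 also had nearly the same mean over both F3 batches, but its log2 difference was -0.10 in the first batch alone. After adjustment over all genes (limma, Benjamini-Hochberg, threshold 0.05), 0 of the 7 members were called in F1, F2 or F3. The share of all genes called was 0.657% in F1, 0% in F2 and 0.0506% in F3. These shares belong to the limma fit used here, and the study itself, which used edgeR, called genes in each generation.

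**Figure D1:**
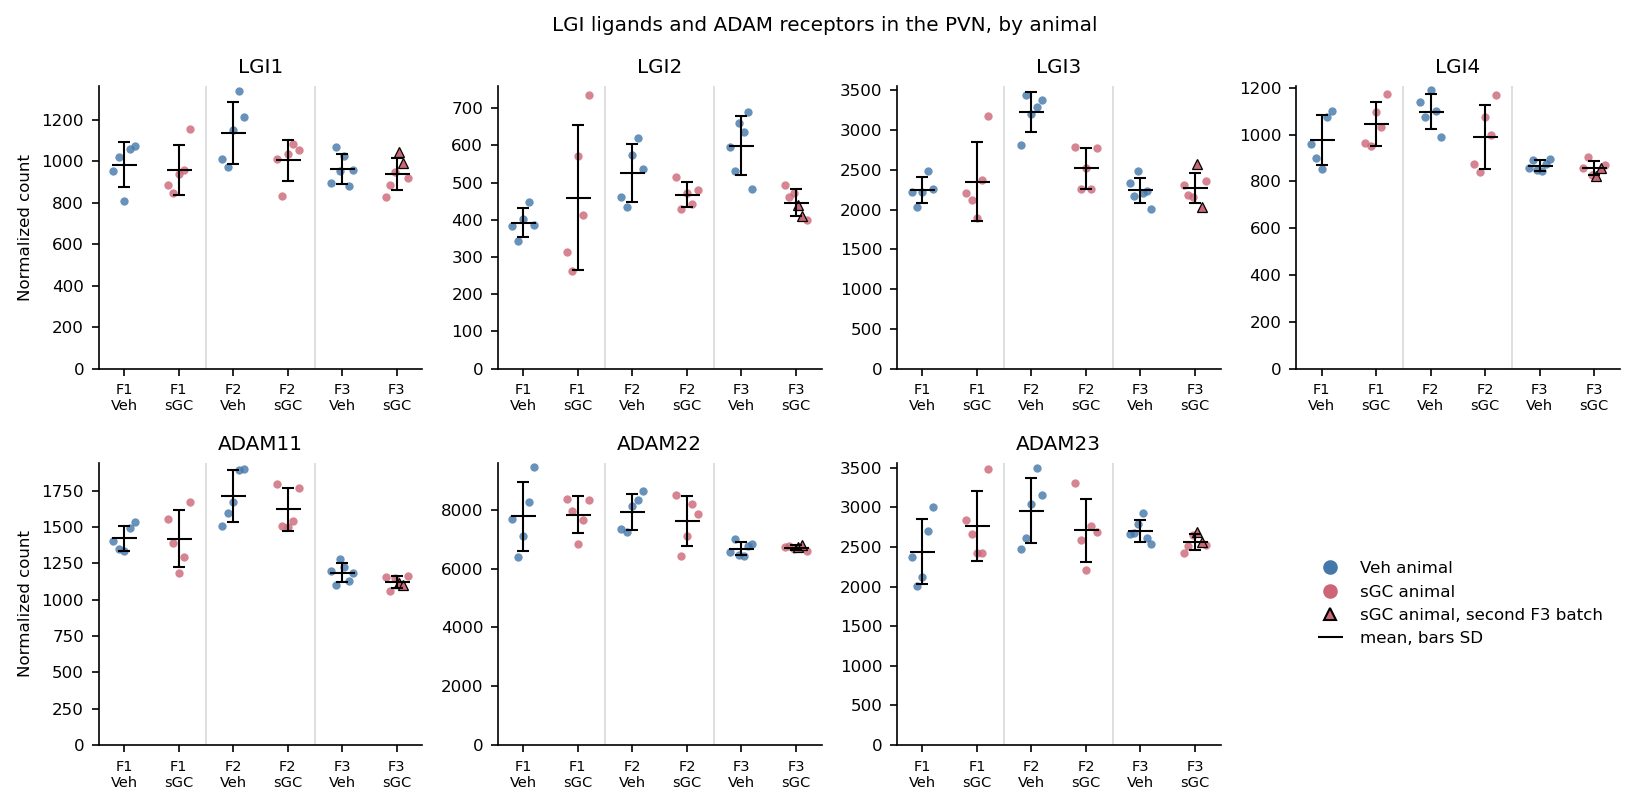
Normalized count (y axis, from 0) of each member in every animal, by generation and treatment. Circles are animals, triangles are the 2 F3 sGC animals of the second batch, and lines with bars are the mean and SD. LGI3 in F2 sGC lies wholly below F2 Veh, LGI2 in F3 sGC lies mostly below F3 Veh, and LGI2 in F1 sGC runs from 262 to 736. Levels are comparable within a generation only.

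Among the ligands, LGI3 in F2 was the only one whose deposited values did not overlap between the groups. Its normalized count was 2808, 3445, 3199, 3294 and 3374 in the F2 Veh animals and 2785, 2259, 2771, 2263 and 2522 in the F2 sGC animals. All 5 sGC animals lay below all 5 Veh animals, although the highest sGC value (2785) was close to the lowest Veh value (2808). The mean was 3224 ± 250.0 (SD, n = 5) in Veh and 2520 ± 258.6 (SD, n = 5) in sGC, which was 21.8% lower. On the log2(value + 1) scale the difference was -0.36 with a standard error of 0.08, and it stayed between -0.41 and -0.32 when each animal was left out in turn. LGI3 was the 1 member without overlap in F2, against 2.4% of all F2 genes, while 0 members were free of overlap in F1 (2.04% of all genes) or F3 (1.21%).

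The sums per animal were lower in some F2 sGC animals (lowest 15.6 M) than in F2 Veh (lowest 17.4 M). With median-of-ratios scaling, the mean was 3155 in Veh and 2582 in sGC, a difference of -0.28 with a standard error of 0.09, and only 2 of 5 sGC animals remained below every Veh animal. Under this scaling 0 members were free of overlap in F1, F2 or F3.

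Markers of several cell types had lower means in F2 sGC, with the largest median difference in those of oligodendrocytes, the myelin-forming cells of the brain. All 10 of 10 listed markers had a lower mean in F2 sGC, with a median log2 difference of -0.79, and 0 of them passed the adjusted threshold. Their summed value ran from 135208 to 244849 in F2 Veh and from 71139 to 115024 in F2 sGC, with no overlap. In F1 the sum ran from 41861 to 52809 in Veh and from 40643 to 112608 in sGC, and in F3 from 54761 to 77988 in Veh and from 57240 to 81169 in sGC. The markers of oligodendrocyte precursors and their lineage were lower in F2 sGC for 5 of 5 (sums of 6861 to 9113 in Veh and 4920 to 6774 in sGC). These were CSPG4, GPR17, SOX10, OLIG2 and BCAS1, and PDGFRA was not listed. Their log2 differences ran from -0.21 for GPR17 to -0.58 for SOX10. Those of neurons were lower for 8 of 8 (median -0.20), of endothelium for 5 of 5 (median -0.37) and of microglia for 5 of 5 (median -0.20). Those of PVN neurons were higher for 8 of 8 (median 0.30). Ependymal markers were lower for 0 of 4 (median 0.68) and astrocyte markers for 3 of 7 (median 0.03). These are deposited values, on which 75.5% of all F2 genes had a lower mean in sGC (median -0.08). None of these markers passed the adjusted threshold (limma), and the part of cell content in the LGI3 difference was not tested.

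LGI3 followed these markers between animals of the same group as well. The relation was taken over all 32 animals on log2 values after median-of-ratios scaling, with each value centred on its own generation and treatment mean, which takes the sGC against Veh difference out. LGI3 and the mean of the 9 oligodendrocyte markers listed in all generations had a Pearson r of 0.80 (permutation p = 1e-05, the smallest that 100000 permutations within groups can give) and a Spearman rho of 0.76 (permutation p = 2.0e-05). Adjusted over the 63 relations of 7 members with 9 marker lists, these were 0.00063 and 0.00126. Without the 2 animals farthest from the median, r was 0.70. Within the generations r was 0.91 in F1, 0.54 in F2 and 0.96 in F3. These relations were chosen after the data had been seen, and both measures come from the same library and from values whose unwanted variation had been removed by the authors.

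In F1 and F3, LGI3 overlapped between the groups. It was 2482, 2262, 2218, 2038 and 2225 in F1 Veh and 2368, 3176, 2207, 2119 and 1894 in F1 sGC. The value of 3176 belonged to SGM8, which also had the highest sum of oligodendrocyte markers in F1 (112608). In F3 it ran from 2004 to 2491 in Veh, with a median of 2222, and from 2027 to 2567 in sGC, with a median of 2246. The log2 difference was 0.05 with a standard error of 0.13 in F1 (-0.01 after median-of-ratios scaling) and 0.02 with a standard error of 0.06 in F3.

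LGI2, a ligand first tied to disease through a remitting epilepsy of juvenile dogs, was the member with the largest difference in F3. Its normalized count ran from 482 to 691 in F3 Veh, with a median of 616, and from 400 to 494 in F3 sGC, with a median of 450. Of the sGC animals, 5 of 6 lay below every Veh animal and 6 of 6 lay below the Veh mean, and the exception was SGM10 at 494 against a lowest Veh value of 482 in SGM9. The mean was 599.5 ± 80.0 (SD, n = 6) in Veh and 446.0 ± 36.7 (SD, n = 6) in sGC, which was 25.6% lower.

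The log2 difference of LGI2 in F3 was -0.42 with a standard error of 0.08, and it lay between -0.48 and -0.38 without each animal in turn. The 2 animals of the second batch had 440 and 409, within the range of the other sGC animals (400 to 494). In the first batch alone the difference was -0.38 with a standard error of 0.10. Scaling by median of ratios left it at -0.42. As a share of the summed normalized counts of the 4 ligands, which does not depend on the scaling of a library and is compared here between animals only, LGI2 made up 11.1% to 14.8% in F3 Veh (mean 12.8%) and 8.81% to 10.99% in F3 sGC (mean 9.92%).

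LGI2 is a member whose level went with neuron markers between animals. Over the 32 animals, centred as above, LGI2 and the mean of 8 neuron markers had a Pearson r of 0.70 (permutation p = 3.0e-05, adjusted p = 0.000945) and a Spearman rho of 0.71 (permutation p = 0.00012, adjusted p = 0.00378). Without the 2 farthest animals r was 0.63, and within the generations it was 0.82 in F1, 0.84 in F2 and 0.64 in F3. In F3 itself, 7 of 8 neuron markers had a lower mean in sGC, with a median log2 difference of -0.05. Their summed value ran from 125289 to 131144 in Veh and from 120404 to 126476 in sGC. The part of neuron content in the LGI2 difference was not tested.

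**Figure D2:**
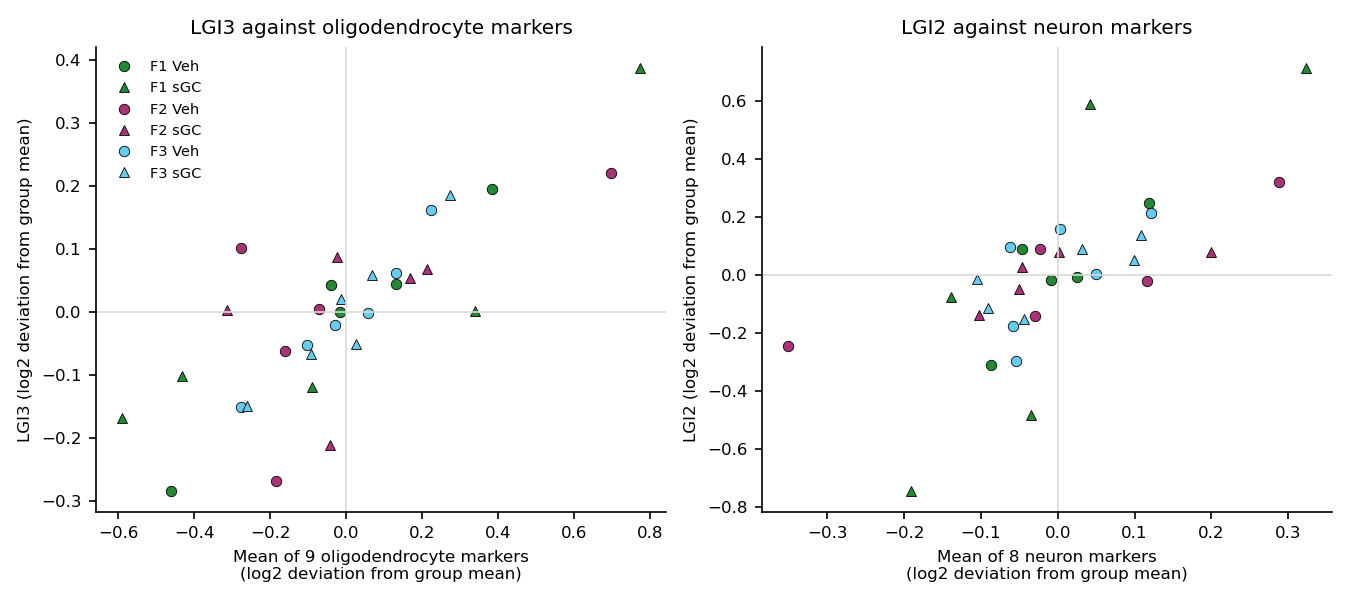
Each point is 1 of 32 animals, as the deviation of its log2 value (median-of-ratios scaled) from the mean of its own generation and treatment. Left, LGI3 against the mean of 9 oligodendrocyte markers (r = 0.80). Right, LGI2 against the mean of 8 neuron markers (r = 0.70). Both clouds slope upward, and the widest LGI2 deviations belong to F1 sGC animals.

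In F1, LGI2 differed more among sGC animals than between the groups. It was 448, 387, 382, 343 and 403 in Veh and 414, 736, 313, 262 and 572 in sGC. The sGC values thus lay on both sides of the Veh range, with 2 animals above it (SGM8 at 736 and SGM20 at 572) and 2 below it (SGM12 at 313 and SGM16 at 262). The coefficient of variation was 9.68% in Veh and 42.4% in sGC, and the log2 difference was 0.13 with a standard error of 0.20, from -0.07 (without SGM8) to 0.30 (without SGM16) when each animal was left out.

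The sGC animals with more LGI2 in F1 were those with low PVN markers. SGM8, SGM20 and SGM4 had 736, 572 and 414 normalized counts of LGI2 and PVN marker sums of 34487, 48742 and 24010. SGM12 and SGM16 had 313 and 262 counts of LGI2 and PVN marker sums of 152970 and 194003. Whether the position of the punch had a part in this order was not tested. Over all 32 animals, LGI2 and the PVN markers had a Pearson r of -0.40 (permutation p = 0.267, adjusted p = 0.466), with -0.64 in F1, -0.10 in F2 and 0.32 in F3. The PVN markers were not alone in this, as r in F1 was larger in size with neuron markers (0.82). With oligodendrocyte markers r was 0.79 in F1, -0.35 in F2 and 0.53 in F3 (all animals 0.54, permutation test, adjusted p = 0.164). With ependymal markers it was -0.70, -0.81 and 0.31 (all animals -0.56, permutation test, adjusted p = 0.0709).

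In F2, LGI2 was 462, 434, 575, 621 and 536 in Veh and 515, 442, 480, 428 and 473 in sGC. The ranges overlapped, with a log2 difference of -0.16 and a standard error of 0.11. All 5 sGC animals lay below the Veh mean of 525.6. Among 200 genes of like level, the spread of LGI2 within groups was larger than that of 92% of genes in F1, 53.5% in F2 and 92.5% in F3.

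LGI1, the synaptic ligand, overlapped between the groups in every generation. It was 1011, 973, 1149, 1336 and 1211 in F2 Veh and 1012, 1084, 1056, 832 and 1036 in F2 sGC, where SGM24 stood below the other 4 animals. The mean was 1136 ± 148.3 (SD, n = 5) in Veh and 1004 ± 99.7 (SD, n = 5) in sGC. The log2 difference was -0.17 with a standard error of 0.10, or -0.10 after median-of-ratios scaling. In F1 it ran from 809 to 1074 in Veh and from 844 to 1156 in sGC, with a difference of -0.04 and a standard error of 0.12. In F3 it ran from 881 to 1067 in Veh and from 829 to 1046 in sGC, with a difference of -0.04 and a standard error of 0.06. The F3 sGC animals of the second batch, SGM21 and SGM22, had the highest sGC values (1046 and 993). In the first batch alone the F3 difference was -0.10 with a standard error of 0.06. The batch as a covariate gives the same difference by design, because only sGC animals carry the second batch among the values used.

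LGI4, the ligand known from Schwann cells, varied little in F3 and, on the deposited values, in F1. Its spread within groups, as deposited, was larger than that of 7% of genes of like level in F1 and 8.5% in F3, but 68.5% in F2. No rank was taken after median-of-ratios scaling, under which it may differ. After median-of-ratios scaling, the residual SD of LGI4 in F1 was 0.134 (0.144 as deposited). It was then 0.055 for ADAM22, 0.132 for ADAM11 and for ADAM23, and 0.167 to 0.476 for the other ligands. In F3 it ran from 842 to 895 in Veh and from 821 to 903 in sGC, a log2 difference of -0.02 with a standard error of 0.03. In F2 it was 1137, 1074, 1189, 1101 and 991 in Veh and 872, 996, 1168, 841 and 1073 in sGC. The F2 ranges overlapped, with a difference of -0.16 and a standard error of 0.10 that became -0.08 with median-of-ratios scaling. In F1 the difference was 0.10 with a standard error of 0.12.

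Among the receptors, the largest difference was that of ADAM23, the presynaptic receptor of LGI1, in F1, at 0.18 with a standard error of 0.13. Its F1 values were 2700, 3004, 2376, 2013 and 2118 in Veh and 2424, 3488, 2837, 2663 and 2426 in sGC, with 1 sGC animal, SGM8, above the Veh range. In F2 the difference was -0.13 with a standard error of 0.11, and in F3 it was -0.08 with a standard error of 0.04. In F3, ADAM23 ran from 2541 to 2933 in Veh and from 2421 to 2693 in sGC, and 6 of 6 sGC animals lay below the Veh mean of 2702.5.

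ADAM11, a receptor known for its place with Kv1 channels on cerebellar basket cell terminals, was also slightly lower in F3. It ran from 1105 to 1278 in F3 Veh and from 1058 to 1164 in F3 sGC, and 6 of 6 sGC animals lay below the Veh mean of 1186.3. The log2 difference was -0.08 with a standard error of 0.04. In F1 it was -0.01 with a standard error of 0.12, and in F2 it was -0.08 with a standard error of 0.09, or close to 0 after median-of-ratios scaling.

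ADAM22, the postsynaptic receptor, had nearly the same mean in both groups of each generation. In F3 it ran from 6443 to 7000 in Veh and from 6587 to 6803 in sGC, a log2 difference of 0.01 with a standard error of 0.02. Its F1 values ran from 6410 to 9459 in Veh and from 6831 to 8381 in sGC, and its F2 values from 7241 to 8637 in Veh and from 6443 to 8516 in sGC. The difference was 0.02 in F1 and -0.06 in F2, with a standard error of 0.12 and 0.09, and each changed sign under median-of-ratios scaling.

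**Figure D3:**
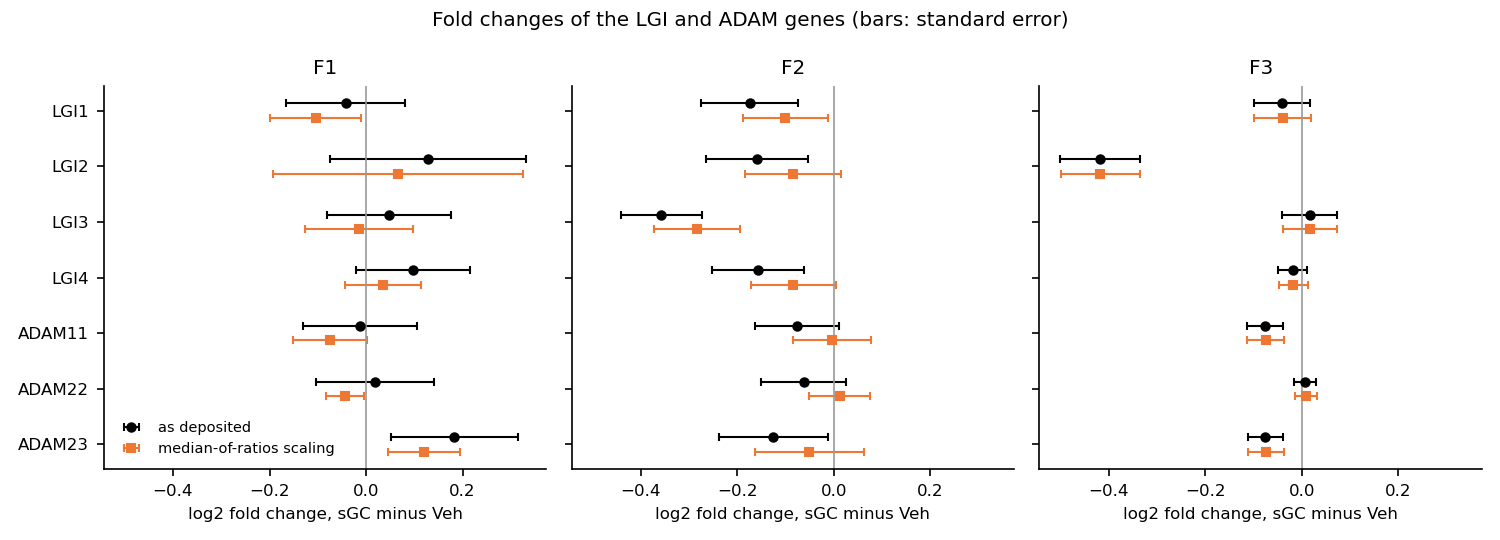
Log2 difference of each member, sGC minus Veh (x axis), by generation, with bars for the standard error from limma. Circles are the values as deposited and squares those after median-of-ratios scaling. LGI3 in F2 (-0.36) and LGI2 in F3 (-0.42) lie farthest from 0, and in F2 the squares lie to the right of the circles.

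The counts of members by direction are given beside those of all genes. In F2 the mean was lower in sGC for 7 of 7 members and for 75.5% of all genes. In F1 it was lower for 2 of 7 members and 36.2% of all genes, and in F3 for 5 of 7 members and 51% of all genes. With median-of-ratios scaling these became 6 of 7 members and 50.8% of all genes in F2, 4 of 7 and 49.3% in F1, and 5 of 7 and 50.1% in F3. The median log2 difference of the members was 0.05 in F1, -0.16 in F2 and -0.04 in F3, and that of all genes tested was 0.07 in F1 and -0.08 in F2, and within 0.01 of 0 in F3.

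Among the members themselves, the levels varied together in part. Over the 32 centred animals, the highest Pearson r between members was 0.69, for LGI3 with ADAM11, and the next was 0.67, for ADAM11 with ADAM23. ADAM22 and ADAM23 had an r of 0.61 that was positive in F1 and F2 (0.51 and 0.81) and negative in F3 (-0.52). LGI1 had an r of 0.45 with its presynaptic receptor ADAM23, positive in all 3 generations (0.32, 0.52 and 0.65), and of 0.28 with its postsynaptic receptor ADAM22. These values are descriptions, since the points share library, depth and tissue content.

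The genes most like each member were sought among the 10542 genes whose mean reached 50 in all tables, by Pearson r over the same 32 centred animals. For LGI3 they were SLAIN1, AATK and GET4 (r = 0.89, 0.88 and 0.87), and for LGI2 they included ACAT2 and OSBPL1A (0.84 and 0.83). ACAT2 encodes an acetyl-CoA acetyltransferase. For LGI1 they were the neuronal RNA-binding protein gene ELAVL2, TRAPPC13 and SNX13 (0.81, 0.80 and 0.80). For LGI4 they were COL9A1, CCDC78 and MICALL2 (0.77, 0.76 and 0.76), of which COL9A1 and MICALL2 had r close to 0 or below it in F3 (-0.05 and -0.13).

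The receptors were most like genes with known neuronal roles in several cases. For ADAM11 they were C11ORF80, SPTBN4 and MAST1 (r = 0.85 for each). SPTBN4, which encodes a spectrin of axon initial segments, had r = 0.96 in F1, 0.97 in F2 and 0.18 in F3. For ADAM22 they were KIAA1841, VAMP4 and PAK3 (0.90 for each), where VAMP4 is a vesicle SNARE. For ADAM23 they were C9ORF24, MLLT11 and ENO2 (0.88, 0.87 and 0.86), and ENO2, the neuronal enolase, is also 1 of the 8 neuron markers.

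Of the 63 relations between members and marker lists, 11 had an adjusted permutation p for Pearson r under 0.05, and 5 of these also had one for Spearman rho under 0.05. The 5 were LGI3 with oligodendrocyte, LGI2 with neuron, ADAM11 with neuron, ADAM11 with microglia and ADAM23 with ependymal markers. Besides LGI3 with oligodendrocyte and LGI2 with neuron markers, LGI3, ADAM11, ADAM22 and ADAM23 were positive with neuron markers over all animals (r = 0.61, 0.70, 0.62 and 0.68; adjusted p = 0.0322, 0.0118, 0.0335 and 0.0322). Their Spearman rho was 0.53, 0.56, 0.36 and 0.30 (permutation test, adjusted p = 0.0541, 0.0450, 0.258 and 0.368). The relations did not hold in F3, where r was 0.03, -0.13, -0.11 and -0.48. ADAM11 was negative with microglia markers (r = -0.66, permutation test, adjusted p = 0.0118) in each generation (-0.46, -0.90 and -0.57), and ADAM23 with ependymal markers (r = -0.73, permutation test, adjusted p = 0.0322) in each generation (-0.49, -0.88 and -0.64). The other 3 passed for r alone. LGI1 with ependymal markers had r = -0.60, which was -0.39 without the 2 farthest animals (permutation test, adjusted p for rho = 0.188). ADAM11 with astrocyte markers had r = -0.61, which was -0.38 without the 2 farthest animals (permutation test, adjusted p for rho = 0.101). LGI4 with thalamus markers had r = 0.52 (permutation test, adjusted p for rho = 0.120), with 0.39 in F1, 0.69 in F2 and -0.06 in F3.

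The wider system was read from lists of genes that work with LGI and ADAM proteins, of which 30 genes could be tested in each generation. Over these lists, 1 gene passed the adjusted threshold in F1, 0 in F2 and 0 in F3. Of 12 postsynaptic genes (PSD-95 family scaffolds, TARP subunits and AMPA receptor subunits), 0 passed in any generation, and the median log2 difference was 0.15 in F1, -0.04 in F2 and 0.00119 in F3. DLG4, which encodes PSD-95, differed by 0.04 in F1, -0.11 in F2 and less than 0.01 in F3. Of 5 genes for 14-3-3 proteins, which aid the export of ADAM22 to the cell surface, 0 passed, with medians of -0.06 in F1, -0.11 in F2 and 0.01 in F3. RTN4R, which encodes the Nogo receptor and has been reported to bind LGI1, differed by -0.55 in F1, -0.12 in F2 and 0.16 in F3, and did not pass. ADGRV1, a receptor that also carries EPTP repeats, did not pass either, with 0.09, 0.11 and -0.02.

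The genes of the axonal Kv1 complex had larger differences, of opposite sign in F1 and F2, and 0 of 5 passed in limma in any generation. The mean was higher in sGC for 5 of 5 genes in F1 (median 0.54), and lower for 5 of 5 in F2 (median -0.34) and for 4 of 5 in F3 (median -0.12). Of all genes, 36.2% had a lower mean in sGC in F1, 75.5% in F2 and 51% in F3. With median-of-ratios scaling the Kv1 genes kept their signs in F1 (0.09 to 0.63) and F2 (-0.58 to -0.05). In F2, KCNA2 and KCNAB2 were then at -0.05 and -0.11. KCNA1, which encodes Kv1.1, had a mean of 1119 ± 165.6 (SD, n = 5) normalized counts in F2 Veh and 714.2 ± 126.8 (SD, n = 5) in F2 sGC, and the ranges did not overlap (919 to 1376 and 518 to 848). The log2 difference was -0.65 ± 0.13 (standard error), at an adjusted p of 0.0622 in limma. With edgeR and a false discovery rate under 0.05, the study itself counted KCNA1 as differentially expressed in both F1 and F2. CNTN2, a cell adhesion protein that holds Kv1 channels beside the nodes of myelinated axons, ran from 3757 to 4741 in F2 Veh and from 2302 to 3252 in F2 sGC, a difference of -0.61 ± 0.10 (standard error), at an adjusted p of 0.0550 in limma. In F1 the differences were 0.70 for KCNA1 and 0.54 for CNTN2, with adjusted p-values of 0.114 and 0.110 (limma), and in F3 they were -0.27 and -0.04. The oligodendrocyte markers moved the same way in F1 and F2, with medians of 0.27 and -0.79, and their part in the Kv1 differences was not tested.

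Among 7 other ADAM genes, which unlike the members are mostly active proteases, ADAM12 rose in F1 and 0 passed in F2 or F3. ADAM12 went from 17.2 ± 3.63 (SD, n = 5) normalized counts in F1 Veh to 47.6 ± 18.6 (SD, n = 5) in F1 sGC, with ranges of 11 to 20 and 29 to 76. The log2 difference was 1.36 ± 0.28 (standard error), at an adjusted p of 0.0252 in limma, and the call was lost without Veh SGM11, SGM15 or SGM19. ADAM33 differed by 0.77 in F1, -0.47 in F2 and -0.31 in F3 at 18 to 215 normalized counts, and did not pass. ADAM19 had the third largest F3 difference of the lists, at -0.19 ± 0.07 (standard error) and an adjusted p of 0.258 in limma.

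When the libraries were scaled by median of ratios, 8 genes of these lists passed in F1 in place of 1. ADAM12, CACNG8, DLG1, GRIA1 and GRIA2 were higher and RTN4R, YWHAE and YWHAZ lower in sGC, and apart from ADAM12 and the genes above they are named because of this result. GRIA1 and GRIA2, which encode AMPA receptor subunits, then differed by 0.41 and 0.18 (limma, adjusted p = 0.00599 and 0.0451). Under the same scaling 2058 of all F1 genes passed, and still 0 of the 7 members.

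**Figure D4:**
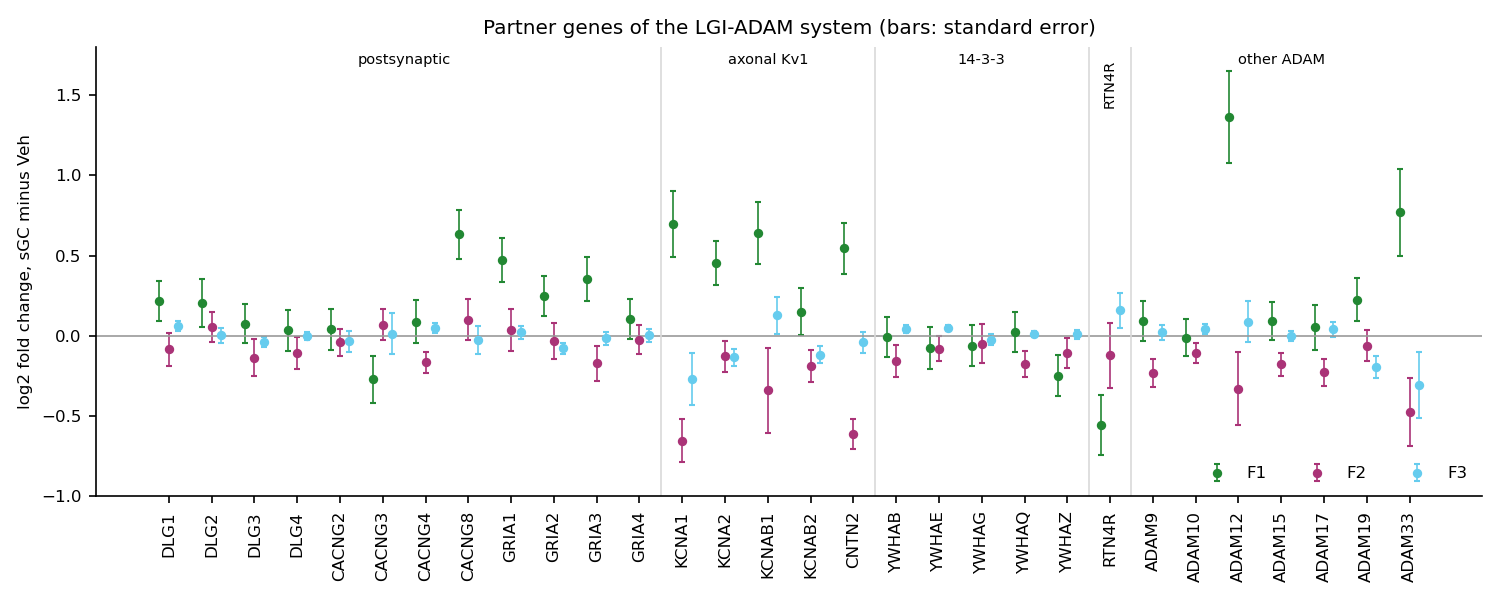
Log2 difference, sGC minus Veh (y axis), of 30 genes on the postsynaptic, axonal Kv1, 14-3-3, RTN4R and other ADAM lists, in F1, F2 and F3, with bars for the standard error from limma. The Kv1 genes lie above 0 in F1 and below 0 in F2. ADAM12 in F1 (1.36) is the single gene past the adjusted threshold.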

How the data were processed

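Total RNA from PVN micropunches was made into TruSeq libraries and read as single ends on a HiSeq. The authors used TopHat2 with the cavPor3 assembly for alignment and GenomicAlignments for counts per gene, dropped outliers by Cook's distance, joined the F3 batches with ComBat and took out unwanted variation with the residuals option of RUVSeq. The deposited values are these normalized counts rounded to whole numbers, which have no fixed range and were handled as a score, not as raw reads. No count model and no count-based interval was therefore used, and depth beyond the sums per animal is unknown. SDs and standard errors hold for these corrected values, from which the authors had already taken variation within groups. The tables also hold the authors' edgeR dispersion, log2 fold change, log CPM, likelihood ratio, p-value and false discovery rate, which were not used here. Libraries sequenced again in F3 were not analysed here.

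The table of each generation was fitted separately (limma 3.58.1, R 4.3.3, eBayes with an intensity trend). The fit used log2(value + 1) of genes whose mean reached 10, without further scaling, with Benjamini-Hochberg adjustment over 11874 genes in F1, 11965 in F2 and 11866 in F3 and a threshold of 0.05. The 7 members all passed the filter in each generation. A difference on this scale understates the change of low genes. The members and the gene lists were chosen with earlier results of these data known. Replicates are animals, which the study counts by litter. Named partner genes are those past the threshold and the 3 with the largest differences in each generation, and for likeness the 3 genes with the highest r, of which 1 is not reported here. Partner lists held 35 genes, of which 30 were tested, besides 1 tested gene with EPTP repeats. The 200 genes of like level are those nearest in mean value. Relations with markers were tested two-sided with 100000 permutations of animals within generation and treatment, which was added after seeing the data. Alternatives were median-of-ratios factors, sample totals, a pseudocount of 8, no filter, a mean of at least 50, each animal left out and, in F3, the first batch alone or the batch as a covariate. The scripts were tested on simulated data. No sequences or coordinates are given, because no genome was used here.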

Additional observations from a re-analysis of the deposited data

Results flagged for a closer look

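Members and named partner genes were examined for a single animal far from the rest of its group. Of 60 sets, each of 1 gene in 1 group of 5 or 6 animals, 2 had one, and chance gives about 3. LGI1 was 832 in F2 sGC animal SGM24 and 1012 to 1084 in the other animals of its group. SGM24 also had the lowest sum of values in F2 (15.6 M), and with median-of-ratios scaling its LGI1 was 948.4 against 993.7 to 1108 in the others. ADAM12 was 11 in F1 Veh animal SGM15 and 17 to 20 in the other animals of its group.

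Of the 7 members and 30 partner genes, 6 partner genes had every sGC animal on one side of the Veh mean in one generation and on the other side in another. The difference between generations was not tested, and the tables were normalized apart. The pattern was read on deposited values and was not counted over all genes. On these values 36.2% of all genes had a lower mean in sGC in F1, 75.5% in F2 and 51% in F3. The log2 difference of ADAM12 was 1.36 in F1 and -0.33 in F2. That of ADAM33 was 0.77 in F1, -0.47 in F2 and -0.31 in F3. That of CNTN2 was 0.54 in F1 and -0.61 in F2, that of KCNA2 0.46 in F1 and -0.13 in F3, that of GRIA2 0.25 in F1 and -0.08 in F3, and that of YWHAE -0.077 in F1 and 0.05 in F3. No member showed this pattern.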

How the results depend on the processing

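No paired analysis was possible because the animal numbers in the labels are not shared between the groups compared. The deposited values set the precision, with 5 or 6 animals a group and no raw reads. Of 343 alternative values of the 21 member differences, all 343 lay within 1 SD of the residuals of the value reported. This count says little, since leaving out 1 animal can move a difference by only part of that SD. In F3 the batch covariate also repeats the differences of the first batch alone, so those values are not separate. The filter settings left the differences themselves unchanged. Of the 343 values, 22 had the other sign, in 9 of the 21 differences, with neither LGI3 in F2 nor LGI2 in F3 among them. Without each animal in turn, the F1 median member difference lay between -0.07 and 0.09, that of F2 between -0.19 and -0.10 and that of F3 between -0.07 and -0.01. A member was called under 1 alternative, without F2 Veh animal SGM22, where 1 of 7 passed (limma). In that same fit 86 of 11955 genes passed.

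The count of genes called (limma) in F1 was 2058 with median-of-ratios factors (1006 higher and 1052 lower) and 1943 with sample totals (1026 higher and 917 lower), against 78 (72 higher and 6 lower). It lay between 15 (without Veh SGM15) and 474 (without Veh SGM7) when each animal was left out. Scaling moved the median of all genes from 0.07 to less than 0.01 in F1 and from -0.08 to less than 0.01 from 0 in F2. Partner genes called in F1 were 8 with either scaling and 0 to 3 without each animal. In F2 the count was 17 with a mean of at least 50, against 0 (1395 at an unadjusted p under 0.05), and 0 to 114 without each animal, with 114 without Veh SGM28, 86 without Veh SGM22 and 23 without sGC SGM30. Partner genes called in F2 were 1 with a mean of at least 50 and 0 to 2 without each animal. In F3 the count was 2 in the first batch and 3 with the batch as a covariate, against 6, and 1 to 15 without each animal, with 0 partner genes called throughout. The cause of these shifts was not tested.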
